A study of Mus musculus with 6 samples.

Results

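Transcripts of the voltage-gated potassium channels were examined in the mouse nucleus accumbens, the ventral part of the striatum, at 24 h of withdrawal from repeated cocaine. Members were chosen by gene symbol alone: the pore-forming and modulatory alpha subunits (Kcna, Kcnb, Kcnc, Kcnd, Kcnf, Kcng, Kcnh, Kcnq, Kcns and Kcnv), the Kcne subunits and the potassium channel interacting proteins Kcnip1 to Kcnip4. Of 23479 rows with test status OK in the authors' deposited table, 46 were members, with 1 row kept per symbol. Kcna7 and Kcne1 matched by symbol but were listed at 0 in both groups without a test, and a second and weaker row of Kcnh8 was set aside.

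The mice were C57BL/6 males aged 11 weeks. They had received intraperitoneal injections for 1 week, either of cocaine at 20 mg/kg or of saline. Each group had 3 pools, and a pool combined both accumbens hemispheres of 5 mice, so the design had 15 mice per group. Whether all 3 pools entered each group value is not stated. Cage mates were all given the same treatment, so that treatment and cage cannot be told apart. The deposited table holds 1 expression value per gene and group, given as FPKM, a fragment count corrected for transcript length and for library size, and no value per pool is analysed here. Sequencing depth is unknown.

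Voltage-gated potassium channels open when a neuron depolarises and let potassium leave the cell, which ends the action potential and sets how readily the next one follows. A working channel is a tetramer of alpha subunits, so the blend of subunits that a neuron transcribes shapes its firing. The projection neurons of the accumbens, the medium spiny neurons, are held near a negative resting potential by potassium currents, and Kv1 channels are known to delay their first spike. All alpha subunits share the short signature of the selectivity filter, the part of the pore that passes potassium and not sodium. The Kcne proteins, which cross the membrane a single time, and the cytosolic Kcnip proteins form no pore of their own and tune alpha subunits.

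The coding bases of this signature are shown for 6 of the 10 members called lower after cocaine, because they mark which members carry the pore signature. The bases are from GENCODE vM21 transcripts (GRCm38), read 5′ to 3′ on the strand of the transcript. Capitals mark the 15 bases of the signature within a stretch of 39.
Kcna2: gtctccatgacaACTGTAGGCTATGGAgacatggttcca
Kcna3: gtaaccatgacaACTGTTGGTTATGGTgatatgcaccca
Kcnd2: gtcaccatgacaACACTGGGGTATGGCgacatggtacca
Kcnd3: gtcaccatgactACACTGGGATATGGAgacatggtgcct
Kcng3: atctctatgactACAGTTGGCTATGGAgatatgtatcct
Kcnh7: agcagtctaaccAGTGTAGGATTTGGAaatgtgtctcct

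A search of the reading frame for the usual form of the signature, with a tyrosine codon between its glycine codons, found it in 30 of the 46 members. The 8 ether-a-go-go genes, Kcnh1 to Kcnh8, held the form with a phenylalanine codon there instead. All 38 alpha subunits thus held a match, and none of the 4 Kcne and 4 Kcnip genes did. Among 21739 protein-coding genes, 1.32% held either form.

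After cocaine, 10 of the 46 members were lower at an authors' q under 0.05, and 0 were higher. Among them were Kcnq3, Kcna2, Kcnh7, Kcnd3, Kcng3, Kcna3, Kcnc1 and Kcnd2. The 10 had log2 ratios of cocaine over saline from -0.98 to -0.36. All 10 were alpha subunits, and they came from 7 of the 9 subunit groups. At an unadjusted p under 0.05 the authors' Cuffdiff test held 12 members lower and 2 higher, against 8.92% of all rows lower and 10.1% higher. The difference had no check by replicate, since only 1 value per group was available.

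Over all 23479 rows, the authors' deposited table called 11.9%, with 5.76% lower and 6.10% higher. Of rows with a mean of at least 1 FPKM, 7.27% were called lower, whereas 10 of the 35 members at that level were. The median log2 ratio was -0.14 over the 46 members and 0.03 over all rows above 0 in both groups. Over the 35 members with at least 1 FPKM it was -0.05. The 36 uncalled members had a median log2 ratio of 0.03, 17 of them below 0 and 19 above.

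**Figure D1:**
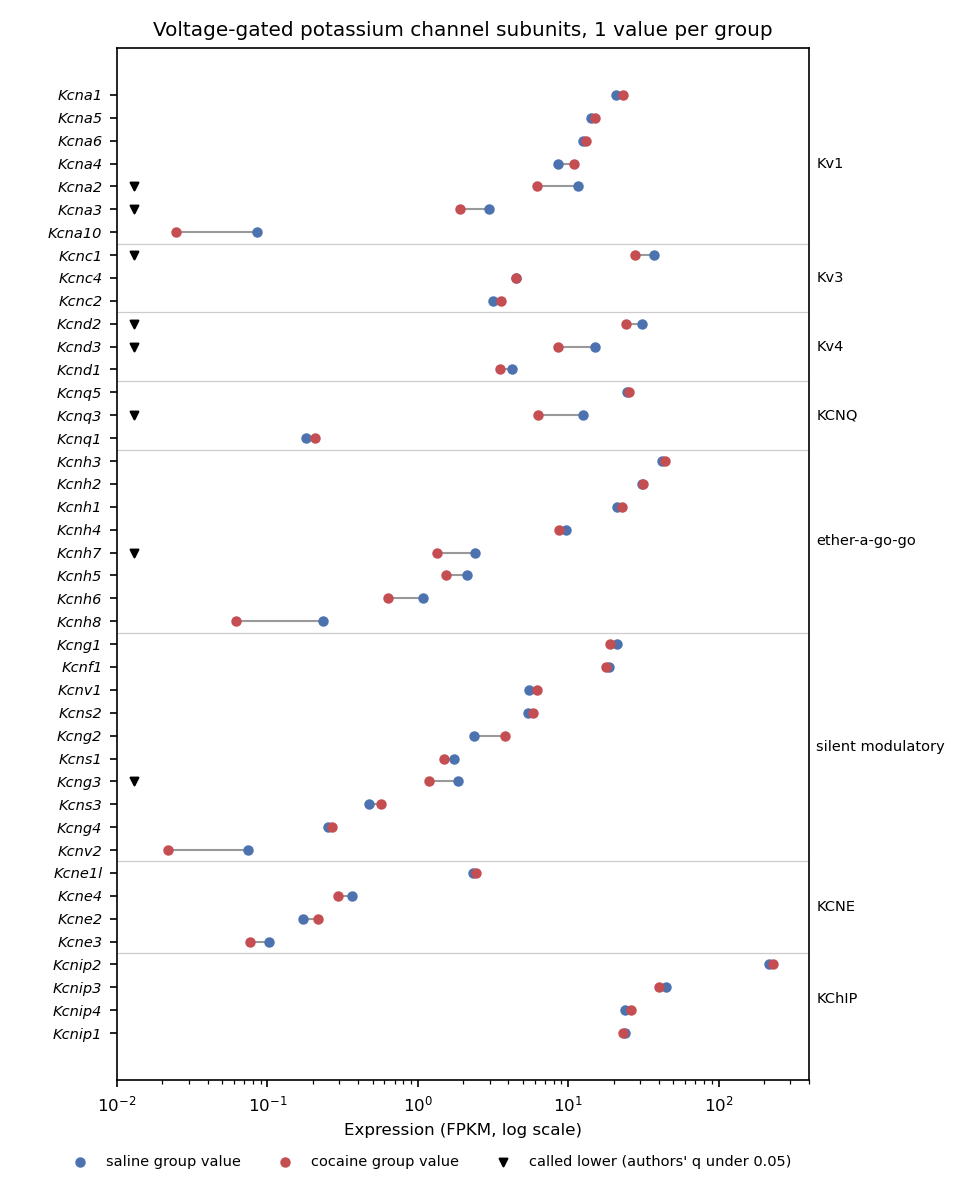
Expression of 42 of the 46 subunits in the saline and cocaine groups (x axis, FPKM on a log scale; 1 point per group, with no error since values per pool are merged), ordered by subunit group and mean level. Triangles mark the 8 drawn members called lower; Kcnip2 was the most abundant in both groups.

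Errors printed with a log2 ratio are implied standard errors: the size of the log2 ratio over the size of the statistic in the authors' deposited table. Whether they hold the spread between pools is not stated in the table. For members with a mean of at least 1 FPKM they ran from 0.06 to 0.34, and for the 11 members below that level from 0.33 to 1.44. None of those 11 was called, and Kcnh6 alone among them had an unadjusted p under 0.05. In this bulk tissue, fewer cells of a type and less RNA per cell cannot be told apart.

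**Figure D2:**
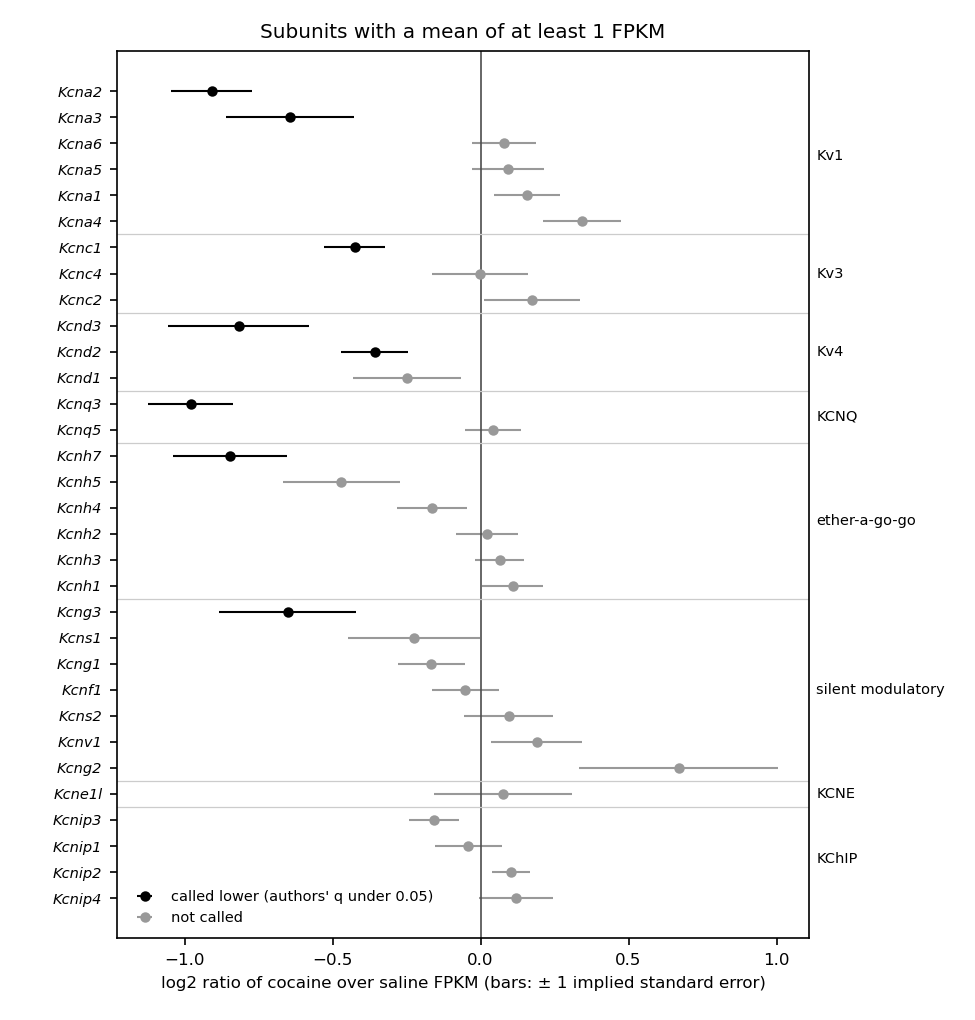
Log2 ratio of cocaine over saline for 32 of the 35 subunits with a mean of at least 1 FPKM (x axis; bars are ± 1 implied standard error), by subunit group. Called members (black) lie between -0.98 and -0.36, and the uncalled Kcna4 and Kcng2 have the highest ratios.

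The KCNQ genes encode the channels of the M-current, a slow potassium current that muscarinic receptors shut and that restrains repetitive firing. Kcnq3 (chromosome 15, 65826733 to 66117786 in mouse build mm9, also NCBIM37, as are all positions of channel genes given with a start and an end) was at 12.5 FPKM after saline and 6.34 FPKM after cocaine in the authors' deposited table. Its log2 ratio of -0.98 ± 0.14 was the lowest of all called members (q = 3.56e-10 in the authors' deposited table).

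Kcnq5, which can pair with Kcnq3, was at 24.6 and 25.3 FPKM and was not called (log2 ratio 0.04 ± 0.09, q = 0.956 in the authors' deposited table). The log2 ratio of Kcnq3 lay 1.02 below that of Kcnq5, with a combined implied error of 0.17. The ratio of Kcnq5 to Kcnq3 expression was 1.97 after saline and 3.99 after cocaine. The cardiac and epithelial Kcnq1 stayed below 1 FPKM and was not called.

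The Kv1 genes encode low-threshold channels of axons and terminals. Kcna2 (chromosome 3, 106904485 to 106909797) was at 11.6 FPKM after saline and 6.20 FPKM after cocaine in the authors' deposited table. It fell by 46.7%, with a log2 ratio of -0.91 ± 0.14 and q = 1.45e-09 in the authors' deposited table. Kcna3, better known from lymphocytes (chromosome 3, 106839080 to 106841047), was at 2.97 and 1.90 FPKM and fell with a log2 ratio of -0.64 ± 0.22 (q = 0.028 in the authors' deposited table).

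No other Kv1 gene was called. Kcna1, the axonal partner of Kcna2, was the most abundant at 20.9 and 23.3 FPKM (log2 ratio 0.16 ± 0.11, q = 0.476 in the authors' deposited table). Kcna5 was at 14.2 and 15.1 FPKM, and Kcna6 at 12.5 and 13.2 FPKM. Kcna4, an alpha subunit of the rapidly inactivating type, was at 8.56 and 10.9 FPKM and just missed the threshold in the upward direction (log2 ratio 0.34 ± 0.13, q = 0.069 in the authors' deposited table). It was the only member that the authors' own marking at a q under 0.1 added, and the only higher one. Kcna10 was below 0.1 FPKM in both groups and was not called.

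The summed Kv1 expression was nearly the same in both groups, 70.8 FPKM after saline and 70.5 FPKM after cocaine, while its make-up differed. Kcna2 made up 16.4% of the sum after saline and 8.79% after cocaine, whereas Kcna1 made up 29.5% and 33.0%. The ratio of Kcna1 to Kcna2 was 1.80 after saline and 3.76 after cocaine. The log2 ratio of Kcna2 lay 1.06 below that of Kcna1, with a combined implied error of 0.18. For Kcna2 minus Kcna3 the difference was -0.26, with a combined implied error of 0.26.

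Of the 7 Kv1 members, 6 sit in a pair of clusters in the genome, and Kcna4 lies apart on chromosome 2. Kcna3, Kcna2 and Kcna10 are neighbours within 159.6 kb of chromosome 3 (106839080 to 106998639), and the log2 ratios of all 3 were below 0 (-0.64, -0.91 and the uncalled -1.80 ± 1.44). Kcna5, Kcna1 and Kcna6 lie within 209.0 kb of chromosome 6 (126482571 to 126691619), with log2 ratios of 0.09, 0.16 and 0.08, and the authors' deposited table called none of them. The Kcna1, Kcna2, Kcna3 and Kcna5 rows were alone in their printed locus, whereas Kcna6 shared its locus with a further row.

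**Figure D3:**
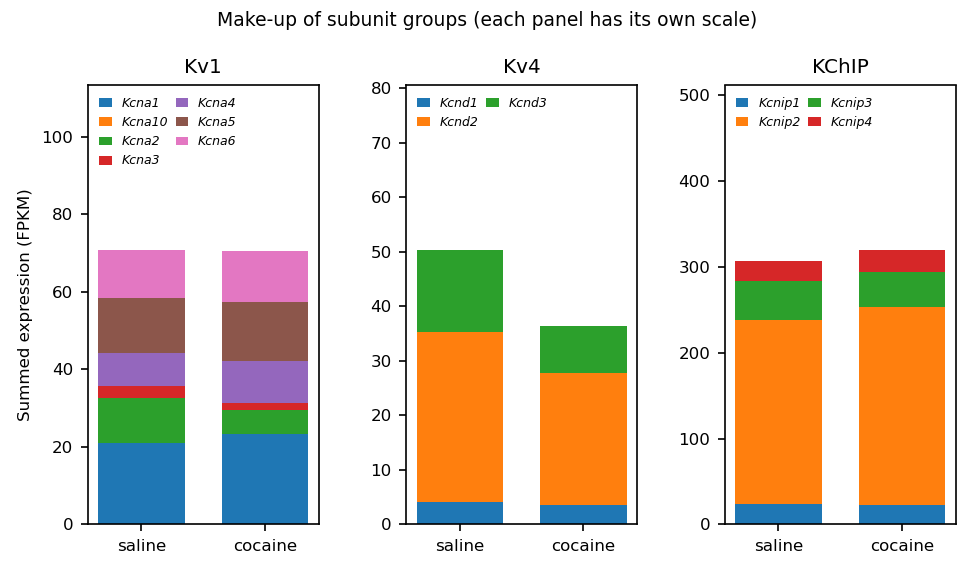
Summed expression of 3 subunit groups in saline and cocaine (y axis, FPKM, with a separate scale in each panel), divided by gene; bars are single group values without error. The Kv1 sum was 70.8 and 70.5 FPKM with a smaller Kcna2 share after cocaine, and the Kv4 sum was lower after cocaine, at 36.4 against 50.3 FPKM.

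The Kv4 genes carry the rapidly inactivating A-type current of the soma and dendrites, and the Kcnip proteins are calcium-binding partners that bring Kv4 channels to the membrane. Kcnd2 (chromosome 6, 21165503 to 21679805) was at 31.1 FPKM after saline and 24.3 FPKM after cocaine in the authors' deposited table, and fell with a log2 ratio of -0.36 ± 0.11 (q = 0.017 in the authors' deposited table). Kcnd3 (chromosome 3, 105244513 to 105476920) was at 14.99 and 8.51 FPKM and fell with a log2 ratio of -0.82 ± 0.24 (q = 0.0076 in the authors' deposited table). Its error was the largest among the 10 called members, and its locus held 1 further row. Kcnd1 was at 4.20 and 3.54 FPKM and was not called (log2 ratio -0.25 ± 0.18). For Kcnd3 minus Kcnd2 the difference in log2 ratio was -0.46, with a combined implied error of 0.26.

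None of the 4 Kcnip genes was called. Kcnip2, the most abundant of all 46 members, was at 214.8 FPKM after saline and 230.5 FPKM after cocaine (log2 ratio 0.10 ± 0.06, q = 0.387 in the authors' deposited table). Kcnip3, also known as a calcium-regulated repressor of transcription, was at 44.7 and 40.1 FPKM (-0.16 ± 0.08). Kcnip4 was at 23.9 and 26.0 FPKM and Kcnip1 at 23.8 and 23.1 FPKM. The Kcnip genes summed to 307.2 FPKM after saline and 319.8 FPKM after cocaine, against Kv4 sums of 50.3 and 36.4 FPKM. The ratio of Kcnip to Kv4 expression was thus 6.10 after saline and 8.80 after cocaine, with no error to set beside it.

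The silent modulatory subunits (Kcnf, Kcng, Kcns and Kcnv) form no channel alone but join Kcnb subunits in mixed tetramers. Of these 10 genes, Kcng3 (chromosome 17, 83985297 to 84031235) was the single one called. It was at 1.86 and 1.18 FPKM, with a log2 ratio of -0.65 ± 0.23, and its q of 0.044 in the authors' deposited table was the closest to the threshold from below. The abundant Kcng1 was at 21.1 and 18.8 FPKM (log2 ratio -0.17 ± 0.11) and Kcnf1 at 18.5 and 17.9 FPKM (-0.05 ± 0.11), and the authors' deposited table called neither. Kcng2 had the highest log2 ratio of any member, 0.67 ± 0.34 from 2.37 and 3.77 FPKM, and was not called (q = 0.223 in the authors' deposited table). The remaining members, Kcns1, Kcns2, Kcns3, Kcng4, Kcnv1 and Kcnv2, were at or below 6.23 FPKM and were not called.

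The Kv3 genes allow very rapid repolarisation and are a mark of fast-spiking interneurons. Kcnc1 (chromosome 7, 53651867 to 53693745) was at 37.4 FPKM after saline and 27.9 FPKM after cocaine, and fell with a log2 ratio of -0.42 ± 0.10 (q = 0.00072 in the authors' deposited table). Kcnc4 was at 4.52 and 4.51 FPKM (0.00 ± 0.16) and Kcnc2 at 3.16 and 3.57 FPKM (0.17 ± 0.16), with no call for either in the authors' deposited table. The fast-spiking marker Pvalb was at 2.00 FPKM after saline and 2.75 FPKM after cocaine (log2 ratio 0.46 ± 0.54, q = 0.756 in the authors' deposited table). Of the 6 interneuron markers listed, Pvalb among them, 3 had a log2 ratio below 0 and 3 above. The 1 called among the 6 was lower after cocaine. Any part of interneuron number in the Kcnc1 result was not tested.

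The ether-a-go-go genes encode channels with a cyclic-nucleotide-binding-like domain, among them the erg channels Kcnh2, Kcnh6 and Kcnh7. Of the 8 genes, Kcnh7 (chromosome 2, 62502342 to 63022344) was called, at 2.41 FPKM after saline and 1.34 FPKM after cocaine, with a log2 ratio of -0.85 ± 0.19 (q = 0.00023 in the authors' deposited table). Its locus held 4 further rows. The abundant members were not called: Kcnh3 was at 41.8 and 43.7 FPKM, Kcnh2 at 31.0 and 31.4 FPKM, Kcnh1 at 21.0 and 22.7 FPKM and Kcnh4 at 9.69 and 8.65 FPKM. Among the erg genes, the log2 ratio of Kcnh7 lay 0.87 below that of Kcnh2, with a combined implied error of 0.22. The log2 ratio of the uncalled Kcnh6 was nearer to that of Kcnh7 than to that of Kcnh2. Kcnh5 (2.12 and 1.53 FPKM, log2 ratio -0.47 ± 0.20) and Kcnh6 (1.09 and 0.63 FPKM, -0.79 ± 0.36) had an unadjusted p under 0.05 and a q of 0.115 and 0.155 in the authors' deposited table. Because the abundant genes differed little, the ether-a-go-go sum was 109.4 FPKM after saline and 110.1 FPKM after cocaine.

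The Kcne subunits were scarce. Kcne1l, an X-linked member, was at 2.33 and 2.45 FPKM, and Kcne2, Kcne3 and Kcne4 were below 0.4 FPKM in both groups, none called in the authors' deposited table. Kcne2 is known from the choroid plexus, where it pairs with Kcnq1. It was at 0.17 FPKM after saline and 0.22 FPKM after cocaine, with a log2 ratio of 0.34 ± 0.82. The summed level of 7 choroid plexus markers was 101.2 FPKM after saline and 17.0 FPKM after cocaine. The difference was almost all from Ttr (93.4 and 9.46 FPKM), the only 1 of the 7 called, lower in the authors' deposited table. Of the 7, 6 had a log2 ratio below 0 and 1 above, and none was at 0.

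The called members had long transcripts. In GENCODE vM21, whose transcripts need not be those the authors used, the longest transcript had a median of 7985 nt for the 10 called members and 3934 nt for the 36 others. Of the members with at least 1 FPKM, 5 had a longest GENCODE transcript of 8000 nt or more, and all 5 were called lower, among them Kcna2, Kcnq3 and Kcnh7. For Kcna2 that transcript has 11582 nt, whereas the interval printed by the authors spans 5.313 kb. The authors' Kcna2 row thus did not cover it, and its place in this length class holds for GENCODE only. Among 750 genes of that length and level, 36.0% were called lower in the authors' deposited table. Where the longest transcript was at least the members' median of 4074 nt, 8 of 21 members were called lower, against 16.3% of 4574 genes. Those genes had a median log2 ratio of -0.07, and the 21 members had -0.14.

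The same slope ran through the whole table. The share of genes called lower was 1.66% below 2000 nt, 2.42% from 2000 to 3000 nt, 6.36% from 3000 to 5000 nt and 15.8% from 5000 to 8000 nt. In the same order of bins, 1 of 2, 0 of 5, 1 of 13 and 3 of 10 members were called lower. These shares and counts are for genes with at least 1 FPKM. Across 13658 genes with at least 1 FPKM, Spearman's rho between transcript length and log2 ratio was -0.30, and across the 35 members it was -0.37. Both describe genes that share the same pools, and carry no p for that reason. The shortest transcripts among the called members were those of Kcna3 (1902 nt) and Kcng3 (3356 nt), and among the uncalled members Kcnh1 (7242 nt) and Kcnq5 (6975 nt) had long ones. All 8 Kcne and Kcnip genes had a longest transcript of at most 4095 nt. The part of transcript length in the falls was not tested.

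**Figure D4:**
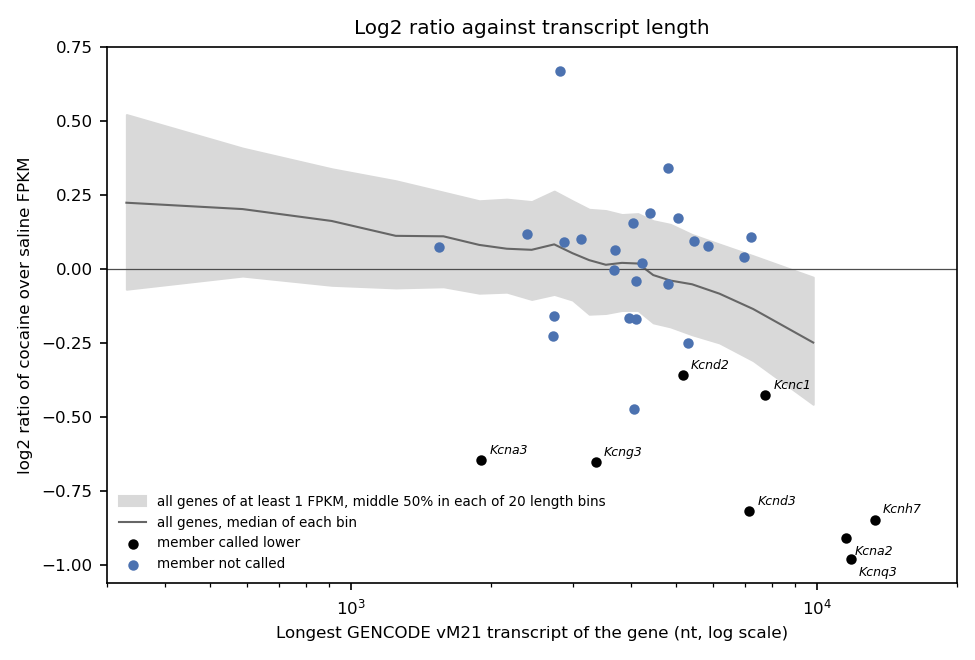
Log2 ratio of cocaine over saline (y axis) against the longest GENCODE vM21 transcript (x axis, nt, log scale) for 32 of the 35 members with at least 1 FPKM, over the median and middle 50% of all such genes in 20 length bins. The gray line falls with length, and the 3 drawn members of 8000 nt or more are all called lower.

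Promoters were compared because 10 members moved the same way. RefSeq windows (GRCm38.p6) were found for 32 of the 46 members, among them 7 called ones, and the 250 bases before the start were searched on both strands. The full cyclic AMP response element TGACGTCA was in 0 of the 32 members' windows, against 1.77% of 27025 genes. Its shorter form TGACG, which lies within it, was in 7 of 32 members (19.8% of all genes) and in 2 of the 7 called members, Kcnc1 and Kcng3. The AP-1 letters TGANTCA were in 3 of 32 members and none of the called ones (7.82% of all genes). The GC box CCGCCC was in 22 of 32 members and in 5 of the 7 called ones (35.4% of all genes). TATAAA was in 0 members (14.3% of all genes). The set of all genes was not matched to the members in G and C content. A match describes letters in this window only. The windows of the called members with TGACG are shown, with that motif or its reverse complement in capitals, at chr7:46396218-46396467 on the plus strand for Kcnc1 and chr17:83631896-83632145 on the minus strand for Kcng3.
Kcnc1: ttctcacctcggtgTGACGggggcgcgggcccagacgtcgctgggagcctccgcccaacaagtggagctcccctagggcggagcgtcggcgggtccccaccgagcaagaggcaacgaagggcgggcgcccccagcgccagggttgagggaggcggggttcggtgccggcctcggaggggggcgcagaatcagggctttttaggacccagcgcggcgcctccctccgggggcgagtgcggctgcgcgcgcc
Kcng3: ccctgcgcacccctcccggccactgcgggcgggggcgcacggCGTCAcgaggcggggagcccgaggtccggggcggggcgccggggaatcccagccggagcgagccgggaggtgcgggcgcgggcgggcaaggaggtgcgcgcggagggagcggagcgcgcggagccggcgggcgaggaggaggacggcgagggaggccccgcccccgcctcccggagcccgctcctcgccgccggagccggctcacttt
Both were rich in G and C, at 74.4% for Kcnc1 and 82.4% for Kcng3.

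Proteins that bind or anchor these channels were listed separately: 23 genes, of which 21 were measured under their own symbol. Of these, 10 were called in the authors' deposited table, 6 lower and 4 higher, and their median log2 ratio was -0.07. Over all rows 11.9% were called in either direction. All 21 had a mean of at least 1 FPKM, and of all rows at that level 14.8% were called. That share is not matched for transcript length, which was not compared for the partner genes. Of 7 genes of axonal clustering proteins, 3 fell and 4 were not called. Those that fell were the Lgi1 receptor gene Adam22 (43.4 to 29.1 FPKM, log2 ratio -0.58 ± 0.07), its relative Adam23 (-0.39 ± 0.08) and the Kv1-clustering adhesion gene Cntn2 (-0.46 ± 0.09) in the authors' deposited table. The uncalled ones were Cntnap1 (log2 ratio -0.03 ± 0.10), Cntnap2 (-0.13 ± 0.09), Lgi1 (0.15 ± 0.11) and Adam11 (-0.23 ± 0.09), by the authors' deposited table. The gene of the axon initial segment anchor Ank3, which holds KCNQ channels in place, was at 45.0 and 32.8 FPKM and fell too (-0.46 ± 0.07, by the authors' deposited table). The scaffold gene Dlg2 (-0.50 ± 0.07) fell as well, and Dlg4, at 1197 and 1066 FPKM, fell by 0.17 on the log2 scale (± 0.05) in the authors' deposited table.

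Calm3, whose calmodulin product binds the KCNQ tail, rose by the authors' deposited table, at 494.8 and 551.8 FPKM (log2 ratio 0.16 ± 0.01). The gene of Vapa, which tethers Kcnb channels to the endoplasmic reticulum, rose from 34.5 to 46.2 FPKM (0.42 ± 0.13), and the Kv4 partner gene Dpp10 rose with a q of 0.04995 at the threshold (0.33 ± 0.12) in the authors' deposited table. The abundant uncalled genes were Calm2 (1045 and 1258 FPKM, q = 0.053), the beta subunit gene Kcnab1 (123.8 and 144.7 FPKM, q = 0.073) and Dlg1 (88.2 and 84.2 FPKM, log2 ratio -0.07 ± 0.32) in the authors' deposited table. Rows that shared a locus with another made up 11 of the 21, and limiting the list to rows alone in theirs left 5 calls.

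Other channel families were set beside the 46 members, of which 21.7% were called. Of 35 inward-rectifier, tandem-pore and calcium- or sodium-activated potassium channel genes, 4 were called lower and 1 higher (14.3% in all, median log2 ratio -0.07). Among those that fell were Kcnma1, the large-conductance calcium-activated channel (34.1 and 18.7 FPKM, log2 ratio -0.87 ± 0.11), and the sodium-activated Kcnt1 (113.5 and 84.1 FPKM, -0.43 ± 0.06), by the authors' deposited table. Of 37 genes with calcium or sodium channel symbols, 7 were called lower and 1 higher (21.6% in all, median log2 ratio -0.15). This list, set by symbol, took in the Cacng genes, some of which encode AMPA receptor auxiliary proteins. None of the Cacng genes was called, so the share for channel subunits proper is not given by this list. Over all rows 11.9% were called. Of these 37 genes 17 shared a locus with another row, and 2 of the 8 calls were in rows alone in theirs. Among the 35 other potassium channel genes 5 shared a locus, and 4 of the 5 calls were in rows alone in theirs. The differences between the families were not tested, and transcript length was not compared for the other families.

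The tissue carried its defining markers. All 12 medium spiny neuron markers were between 56.8 and 1943 FPKM in both groups, and their sum was 3958 FPKM after saline and 4383 FPKM after cocaine, with 1 called lower and 2 higher. The 6 interneuron markers summed to 888.7 and 903.8 FPKM, with 1 called lower. The 5 cortical glutamate neuron markers summed to 16.5 and 25.9 FPKM, and all 5 had a log2 ratio above 0. Of these, Slc17a7 alone was called, higher by the authors' deposited table (log2 ratio 0.72 ± 0.13). The 6 astrocyte markers summed to 639.0 and 464.5 FPKM, with Slc1a2 called lower at 426.0 and 258.4 FPKM, and those of oligodendrocytes to 2009 and 1948 FPKM, with 1 call. Those of microglia (91.3 and 98.3 FPKM) and endothelium (30.9 and 31.7 FPKM) had 1 call each. The part of cell composition in the channel results was not tested.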

How the data were processed

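RNA of the nucleus accumbens was sequenced from 6 pools, 3 per treatment, grouped by sample title. The submitters' processing notes name CASAVA, TopHat, Cuffdiff and a mouse build written as mm9 and as NCBIM37; tool versions and annotation: not given in the sources used here. The authors deposited 1 FPKM value per gene and group in a table laid out, per the file headers, as a Cuffdiff gene test; the unit is taken from that layout. The deposited p-value of the authors' test matched a two-sided normal p of their statistic. The deposited q-value reaches above 1, so it is treated as a score that is set against thresholds for the calls. The deposited test statistic gave the implied standard errors. In 100% of rows the statistic had the reverse sign of the ratio, and its size alone was used.

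Log2 ratios were computed without a pseudocount with Python 3.11.15, pandas 2.3.3 and NumPy 2.4.6. Calls were made at q under 0.05 and status OK, with the authors' adjustment over the whole table; a test on values per pool was not possible. How many pools entered the authors' test is not stated. Start positions were written 1-based, after which 21 of 21 mitochondrial positions equalled those of the reference. A shared locus means that another row prints the same interval (48.8% of status OK rows, 9 of 46 members). Transcript lengths were available for 86.2% of symbols and for all 46 members. Recalculated adjustment and calling were tested on simulated data. Every member could be named, and of the partner list all called genes and the 3 most abundant others; some of these genes are not reported here by name or drawn, and counts and medians include them. Pvalb, Ttr, Slc1a2, Slc17a7, Kcnma1, Kcnt1, the uncalled axonal genes and the pairs of members compared were chosen after their values were seen. Members and lists were chosen with earlier results of these data known. Alternatives were other q thresholds, recomputed adjustment, FPKM minimums, a fold minimum, rows alone in their locus, another row per symbol, a pseudocount, centring and the mean.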

Additional observations from a re-analysis of the deposited data

How the results depend on the processing

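Of the 10 members called lower, 7 held at a q under 0.01 (Kcna3, Kcnd2 and Kcng3 did not), 7 had a mean of at least 5 FPKM, 7 were alone in their locus (Kcnd3 and Kcnh7 were among those that were not), and the same 10 were called with recomputed Benjamini-Hochberg adjustment. A difference of at least 1.5-fold was met by 6 of the 10 called members, all lower. At a q under 0.1, 1 member was called higher. Rows alone in their locus left 5 calls of 10 in the partner list and 2 of 8 among the calcium and sodium channels, and a q under 0.01 left 3 of 5 among the other potassium channels. The members' median log2 ratio ran from -0.27 (mean in place of the median) to -0.04 (at least 5 FPKM). Limiting to long transcripts, chosen after seeing the data, left 8 calls. No log2 ratio of a called member changed sign with a pseudocount of 1 or centring. No paired analysis was possible because the table holds 1 merged value per group, and leaving out pools was not possible for the same reason. Depth is unknown, so no counting error is given.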
